A study of Mus musculus with 6 samples.

Results

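The endogenous opioid system was represented by 8 genes, 4 that encode peptide precursors (Pdyn, Penk, Pomc and Pnoc) and 4 that encode receptors (Oprk1, Oprd1, Oprm1 and Oprl1). They were chosen by name, and all 8 were found among the 21926 genes of the count tables. They were followed in 530 of 576 wells, those with at least 500 detected genes and under 25% mitochondrial counts. The 46 wells left out all had too few genes, a median of 27.5 counts, and no count of any of the 8 genes.

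The cells came from 3 male and 3 female mice at postnatal day 10, all of genotype Ai14f/+;Sf1-Cre. Roughly dissected hypothalamus was dissociated with papain and sorted by flow cytometry into 1 plate of 96 wells per mouse. Sf1 is the older name of Nr5a1, the transcription factor that marks the ventromedial hypothalamus (VMH), and Ai14f is a Cre-dependent fluorescent reporter, so every mouse carried both alleles and the comparisons hold no mouse without Cre. A Cre reporter stays on in cells whose Nr5a1 has since gone down, and the labels do not state the sorting gate. The series asks how the sexes differ in hypothalamic cells that control energy expenditure, and each mouse is also a plate, so mouse and plate cannot be told apart.

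The opioid system signals through peptides cut from large precursors and packed into secretory vesicles. Prodynorphin (Pdyn) gives dynorphins, which prefer the kappa receptor (Oprk1), proenkephalin (Penk) gives enkephalins, which act on the delta (Oprd1) and mu (Oprm1) receptors, proopiomelanocortin (Pomc) gives beta-endorphin beside the melanocortins, and prepronociceptin (Pnoc) gives nociceptin, the ligand of Oprl1. All of these receptors couple to inhibitory G proteins, and in the hypothalamus the peptides are known for effects on feeding, energy use, stress and reproduction.

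In the GRCm38 (mm10) build with GENCODE vM21, Pdyn lies at chr2:129686565-129699844 on the minus strand and Penk at chr4:4133531-4138819 on the minus strand. Pomc lies at chr12:3954951-3960642 on the plus strand and Pnoc at chr14:65400673-65425472 on the minus strand. Among the receptors, Oprk1 lies at chr1:5588466-5606131 (plus), Oprd1 at chr4:132110726-132144486 (minus), Oprm1 at chr10:6758506-7038198 (plus) and Oprl1 at chr2:181715016-181720985 (plus). All 8 are protein-coding. Oprm1 shares 152403 bases with Ipcef1 on the opposite strand, and Penk shares 499 bases with A830012C17Rik, so reads there cannot be assigned with certainty where the strand of counting is unknown.

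Upstream sequence is shown for the 2 precursors that the results below turn on, Pdyn, found in many cells, and Pomc, held by few cells in large amounts. The RefSeq promoter table (GRCm38.p6) held 5 of the 8 members, in 10 windows from 250 bases before to 50 bases after a start. The sequences below are the 250 bases before the start, written 5′ to 3′ on the strand of the gene, at chr2:129699939-129700188 (minus) for Pdyn and chr12:3954695-3954944 (plus) for Pomc. Capitals mark the motif bound by NR5A factors (AAGGTCA) and the TATA box (TATAAA), each searched on both strands.
Pdyn: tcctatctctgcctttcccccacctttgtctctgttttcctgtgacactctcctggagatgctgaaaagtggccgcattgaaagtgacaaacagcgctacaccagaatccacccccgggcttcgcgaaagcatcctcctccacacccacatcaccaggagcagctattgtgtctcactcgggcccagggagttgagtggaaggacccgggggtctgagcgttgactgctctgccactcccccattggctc
Pomc: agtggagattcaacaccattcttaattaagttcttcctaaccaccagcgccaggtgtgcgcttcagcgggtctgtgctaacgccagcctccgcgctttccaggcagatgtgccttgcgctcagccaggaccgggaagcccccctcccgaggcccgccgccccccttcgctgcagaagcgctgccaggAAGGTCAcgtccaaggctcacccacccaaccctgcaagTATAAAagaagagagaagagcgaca
The Pomc sequence held AAGGTCA from base 188 and TATAAA from base 226, and the Pdyn sequence held neither. AAGGTCA was in 4.72% of all 32851 promoter windows and in 1 of the 10 windows of members. TATAAA was in 13.6% of all windows and in 2 windows of members, those of Pomc and Oprl1. The cAMP response element (TGACGTCA) was in 1.79% of all windows and in no window of a member. These matches describe letters in a window, not bound sites.

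The counts per mouse were 783270, 535469 and 774670 in males and 441260, 185654 and 591768 in females, with a median of 7857, 5945 and 7980 counts per cell in males and 5170, 2097 and 6738 in females. Female 2 was by far the shallowest. Neuronal markers (6 genes) had a count in 97.4% of cells and VMH markers (8 genes) in 85.8%, with all of each list detected over the mice together. The VMH marker Fezf2 had a count in only 3 cells, and none in male 2 and females 1 and 2. Slc17a6, the vesicular glutamate transporter of VMH neurons, had a count in 407 cells, and with Slc17a7 in 73.8 to 93.0% of cells of the other 5 mice but 39.1% in female 2. Markers of other types were present, with the 6 GABAergic markers in 15.3% of cells, the 6 arcuate markers in 36.2%, the 6 of the oligodendrocyte lineage in 25.3%, the 6 astrocyte markers in 6.42% and the 5 microglial markers in 0.943%. C1qa, C1qb and Cx3cr1, defining microglial genes, were at 0 in all mice. Shares of cells depend on depth, and some of the shares compared below are given as counted only. Beside the others stands a share after thinning each cell to 1986 counts. This leaves out shallower cells and keeps 92 of 93, 83 of 84 and 91 of 92 cells of males 1 to 3, and 76 of 88, 49 of 87 and 86 of 86 of females 1 to 3.

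Prodynorphin was the precursor found in most cells. Pdyn had a count in 224 of 530 cells (42.3%, exact 95% binomial interval 38.0 to 46.6%), with 748 counts in all. More than a single count was common, since 78 of the 224 cells had 1 count, and 63 cells had 5 or more, up to 16. In males, Pdyn had a count in 48.4%, 45.2% and 59.8% of cells, against 46.6%, 13.8% and 38.4% in females. Female 2 was the low mouse, with 12 cells and 15 counts. Cells with a Pdyn count had a median of 7141 counts in all, against 4991 in cells without.

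Proenkephalin was found in fewer cells, at a similar share in every mouse. Penk had a count in 79 cells (14.9%, interval 11.98 to 18.2%), with 242 counts. The shares were 17.2%, 14.3% and 17.4% in males and 12.5%, 12.6% and 15.1% in females. Of the 79 cells, 43 had 1 count and 17 had 5 or more, so that a minority of cells carried most Penk counts (149 of 242). The highest cell had 17.

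Prepronociceptin had a count in 75 cells (14.2%, interval 11.3 to 17.4%), with 168 counts. The shares were 20.4%, 14.3% and 20.7% in males and 7.95%, 6.90% and 13.95% in females. Most of these cells (48 of 75) had a single count, 10 had 5 or more, and 1 cell of male 1 had 20, which was 40% of the Pnoc counts of that mouse.

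Proopiomelanocortin had the most counts of the 8 genes and the most uneven distribution. Pomc had a count in 69 cells (13.0%, interval 10.3 to 16.2%), with 1762 counts, but 17 cells with 36 to 207 counts each held 1707 of them. The other 52 cells had 1 or 2 counts, and no cell lay between. The 17 cells were 3, 4 and 4 in males 1 to 3 and 0, 0 and 6 in females 1 to 3. The cells with 1 or 2 counts made up 15.6%, 5% and 10.2% of the remaining cells of males and 10.2%, 5.75% and 13.8% of those of females. Such cells were thus also found on the plates of females 1 and 2, where no cell had a high count. Whether these low counts come from the cell itself was not tested.

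**Figure D1:**
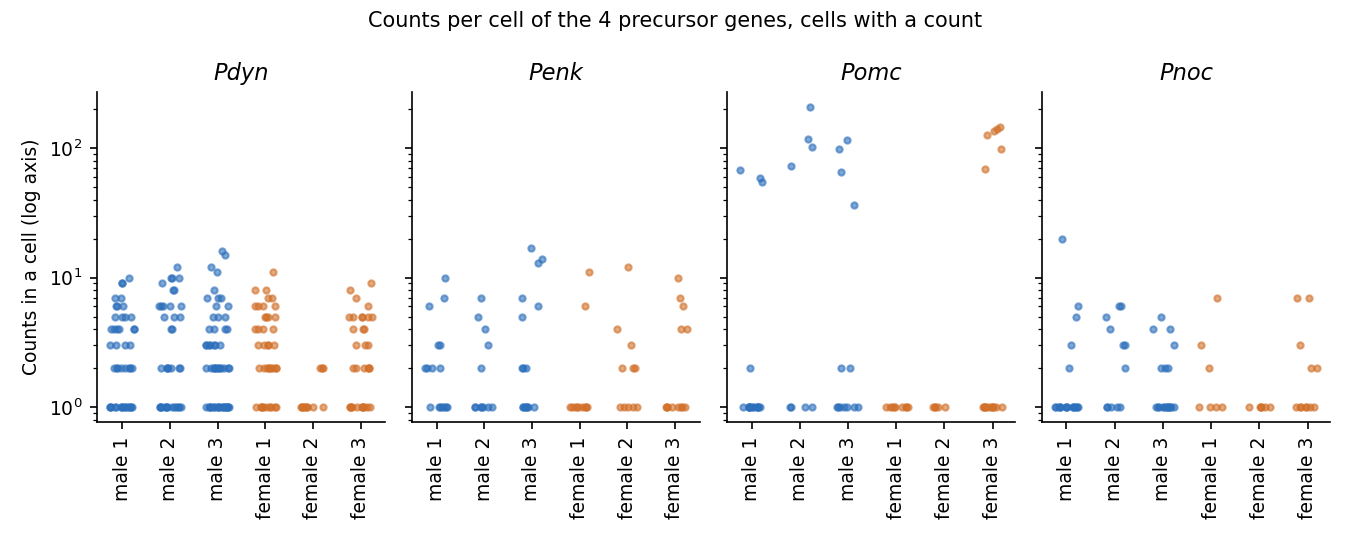
Counts per cell (log axis) of the 4 precursor genes in cells with a count, by mouse, with 1 point per cell, males in blue and females in orange. Pomc cells fall into a band of 36 to 207 counts and a band of 1 or 2 counts with none between, while Pdyn is spread from 1 to 16.

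Among the receptors, Oprl1, the nociceptin receptor, was found in the most cells. It had a count in 352 cells (66.4%, interval 62.2 to 70.4%), with 806 counts and up to 8 in a cell. The shares were 74.2%, 73.8% and 84.8% in males and 67.0%, 14.9% and 82.6% in females. Female 2 again stood apart, with 13 cells and 15 counts. Its Oprl1 level in summed cells was 80.8 CPM (counts scaled by the mouse's total), against 207 to 301 CPM in the other 5 mice. More cells had an Oprl1 count than had a count of 94.8% of the 15220 detected genes, and more had a Pdyn count than of 88.1%.

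Oprk1, the dynorphin receptor, had a count in 55 cells (10.4%, interval 7.91 to 13.3%), with 76 counts and at most 3 in a cell. The shares were 15.1%, 7.14% and 15.2% in males and 4.55%, 4.60% and 15.1% in females. Male 2 and females 1 and 2 were low, the other 3 mice were alike, and the sexes overlapped.

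The delta and mu receptors were near the limit of detection. Oprd1 had 11 counts, each in a cell of its own (2.08%, interval 1.04 to 3.68%), in 1, 0 and 4 cells of males and 3, 2 and 1 cells of females. Oprm1 had 4 counts in 4 cells (0.755%, interval 0.206 to 1.92%), 2 of male 3 and 1 each of females 1 and 3. Ipcef1, which overlaps Oprm1 on the other strand, had 17 counts in 17 cells, so even these few Oprm1 counts cannot be assigned with certainty. A plate of this size allows a share of up to 3.23 to 3.57% where no cell has a count, and intervals and such limits cover counting error only. The order of the genes by cells detected is not an order of expression, since gene length and capture also set detection.

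**Figure D2:**
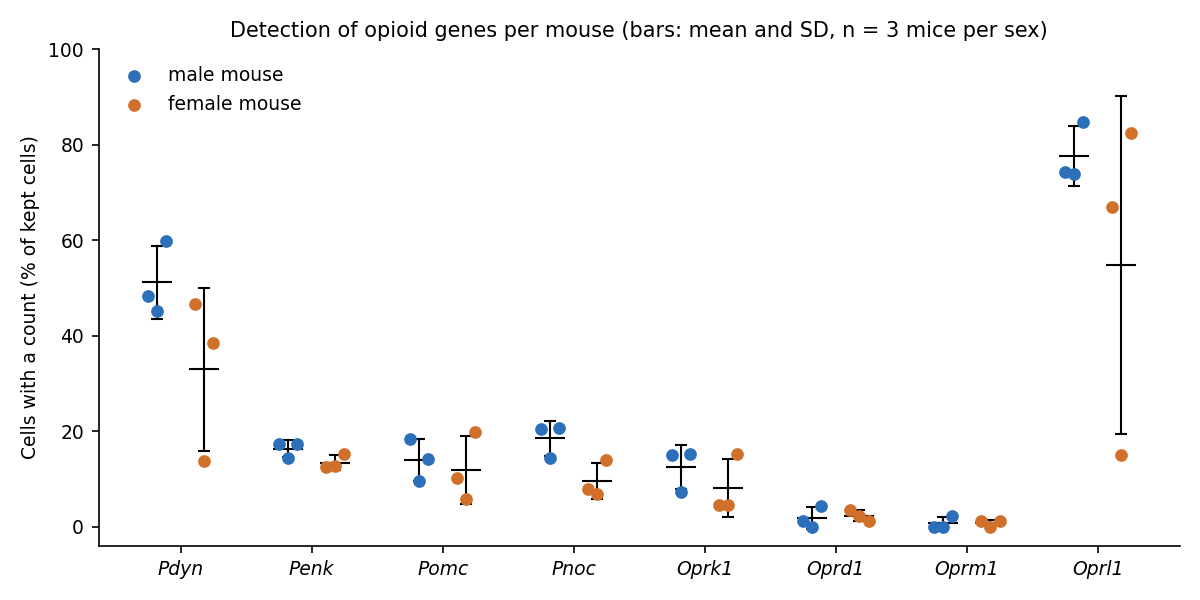
Share of kept cells with a count of each opioid gene in each mouse (y axis, percent), males left of females, with the mean and SD of 3 mice. Female 2 is the low point for Pdyn (13.8%) and Oprl1 (14.9%), and the sexes overlap for all genes but Pnoc.

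No opioid gene was called between the sexes in summed cells. Counts were added over the cells of each mouse and tested with edgeR's quasi-likelihood test, and 0 of the 6 members that passed the filter on low counts were called at an adjusted p of 0.05. The test called 0% of 6794 genes, with 167 genes at an unadjusted p under 0.05, while DESeq2 called 4 genes (87 at an unadjusted p under 0.05), no member among them. Oprd1 and Oprm1 did not pass the filter. In sums over cells, fewer cells with a gene and less RNA per cell cannot be told apart, and the p-values measure the spread between these mice only.

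Pdyn had 188, 276 and 245 CPM in males and 326, 80.8 and 176 CPM in females. The female values lay on both sides of the male ones, and the log2 fold change was 0.26 (SE 0.40, adjusted p = 0.999), or −0.05 without female 2. Penk had 56.2, 52.3 and 96.8 CPM in males and 58.9, 162 and 65.9 CPM in females. Female 2 was the highest for Penk, unlike its place for Pdyn and Oprl1, and the fold change was −0.36 (SE 0.44, adjusted p = 0.999). It took the opposite sign without female 2 (0.17), with no call.

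Pomc followed the number of high cells on each plate. It had 252, 937 and 421 CPM in males and 20.4, 26.9 and 1222 CPM in females, a log2 fold change of 0.31 (SE 1.09, adjusted p = 0.999). The value ran between −0.31 without male 2 and 4.56 without female 3, with no call. Pnoc had 63.8, 63.5 and 43.9 CPM in males and 36.3, 32.3 and 47.3 CPM in females, a fold change of 0.54 (SE 0.33, adjusted p = 0.999). Only the values of male 3 and female 3 crossed. The fold changes of Oprk1 (0.18, SE 0.54) and Oprl1 (0.06, SE 0.38) were smaller than their errors (adjusted p = 0.999), and both took the opposite sign without 1 of the mice.

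Shares of cells with a count were compared in the same way. Pnoc was detected in 18.5 ± 3.61% of cells of males and 9.60 ± 3.81% of cells of females (SD, n = 3 each), without overlap (two-sided exact permutation p = 0.1, the smallest that 20 assignments allow, and 0.533 adjusted over the 8 genes). It was the only member whose shares did not overlap, 1 of 8, and 15.1% of the 15220 genes with a count did not overlap either. After thinning, Pnoc had expected shares of 7.28 ± 0.66% in males and 6.64 ± 1.75% in females (exact permutation p = 0.5). Pdyn was detected in 51.1 ± 7.65% of cells of males and 32.9 ± 17.1% of cells of females (exact permutation p = 0.2), and the difference of 18.2 points became 8.65 without female 2. The expected Pdyn shares after thinning were 27.5% in males and 23.4% in females (exact permutation p = 0.6). Oprl1 was detected in 77.6 ± 6.23% and 54.8 ± 35.4% of cells of males and females (exact permutation p = 0.4), a difference of 22.7 points that became 2.79 without female 2. The expected Oprl1 shares after thinning were 36.6% in males and 34.2% in females.

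The cells were then sorted by what else they held, using 4 genes that mark kinds of neuron. Nr5a1 marks VMH neurons and had a count in 156 cells, Tac1, the tachykinin precursor found in some VMH neurons, in 193, Gad1, the enzyme that makes GABA, in 35, and Tbx3, a transcription factor of arcuate neurons, in 20. None of the 4 was detected in 217 cells. A cell with no count of a marker may still express it at this depth, so cells without a count are called undetected. For each split, counts were summed per mouse over the cells with and without the marker, and the sums were tested with edgeR with mouse as a block, in mice with at least 5 cells on each side.

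**Figure D3:**
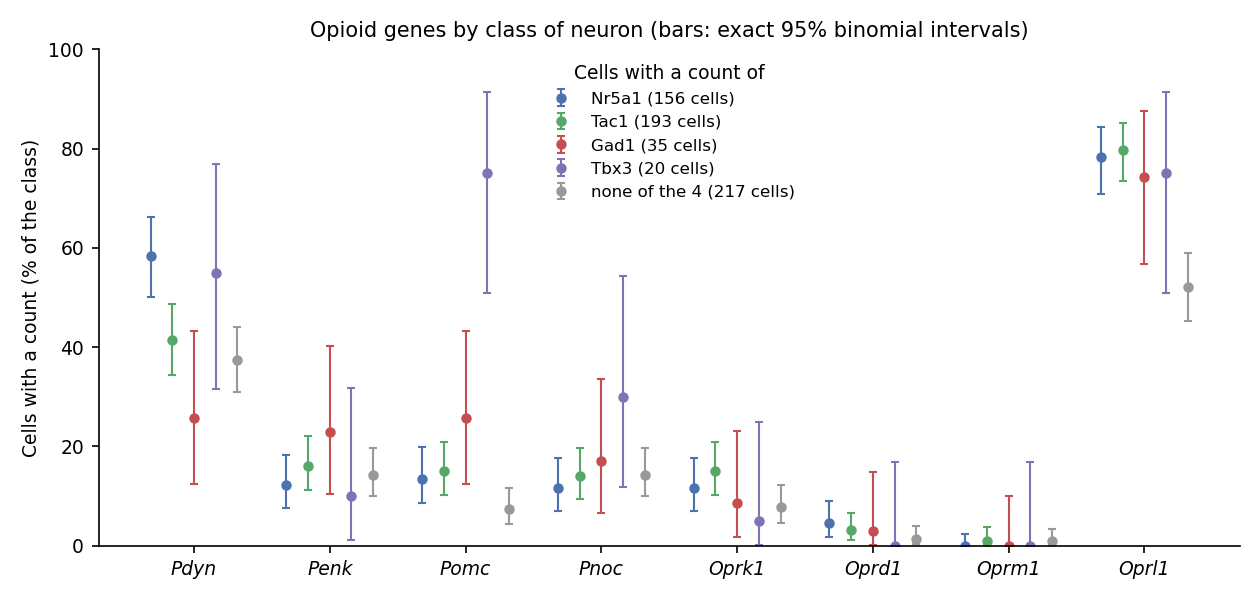
Share of cells with a count of each opioid gene (y axis, percent, with exact 95% binomial intervals) among cells with Nr5a1, Tac1, Gad1, Tbx3 or none of the 4. Pomc stands out in Tbx3 cells (75%), and Pdyn is higher in Nr5a1 cells (58.3%) than in cells with none of the 4 (37.3%). The shares pool cells over mice and are not thinned. The shallow female 2 gave 57 of the cells with none of the 4 and 9 of the Nr5a1 cells. In male 2 the Pdyn shares went the other way (43.3% against 45.5%), and in female 3 they were close (53.8% against 50%).

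In sums over cells, those with Nr5a1 had a higher prodynorphin level and a lower proenkephalin level than those without. Pdyn was higher in Nr5a1-detected cells by a log2 fold change of 0.74 (SE 0.12, adjusted p = 4.07e-05) and Penk was lower by −1.61 (SE 0.26, adjusted p = 2.43e-05), each in 6 of 6 mice. By cells, Pdyn was found in 91 of 156 Nr5a1-detected cells (58.3%) and 133 of 374 undetected cells (35.6%), with expected shares of 35.8% and 21.8% after thinning. Penk was found in 19 of 156 (12.2%) and 60 of 374 (16.04%), or 4.41% and 8.79% after thinning. These shares pool the mice. As counted, the Penk share went the other way in male 2 (16.7% against 13.0%) and male 3 (21.4% against 15.6%). The Pdyn share did so in male 2 (43.3% against 46.3%). Of the 17 cells with 5 or more Penk counts, which held 149 of 242, 2 had Nr5a1. Of the 224 cells with Pdyn, 80 had Tac1 and 86 had Rprm, a VMH marker, 35 had both and 93 had neither. Nr5a1-detected cells were deeper, with a median of 6708 counts against 5352 in undetected cells.

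In Nr5a1-detected cells Pdyn had 238, 401 and 338 CPM in males and 335, 129 and 311 CPM in females. In Nr5a1-undetected cells it had 166, 195 and 196 CPM in males and 317, 73.9 and 113 CPM in females. As a ratio, the difference was smallest in female 1 and largest in female 3. For Penk, Nr5a1-detected cells had 29.7, 37.7 and 40.8 CPM in males and 17.0, 0 and 26.8 CPM in females, and undetected cells had 67.5, 61.8 and 127 CPM in males and 107, 185 and 83.8 CPM in females. For Penk, every detected sum lay below every undetected sum. Penk reached the level of the filter on low counts in the undetected sums only, the side where it was higher. This separation therefore adds no support to the call.

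**Figure D4:**
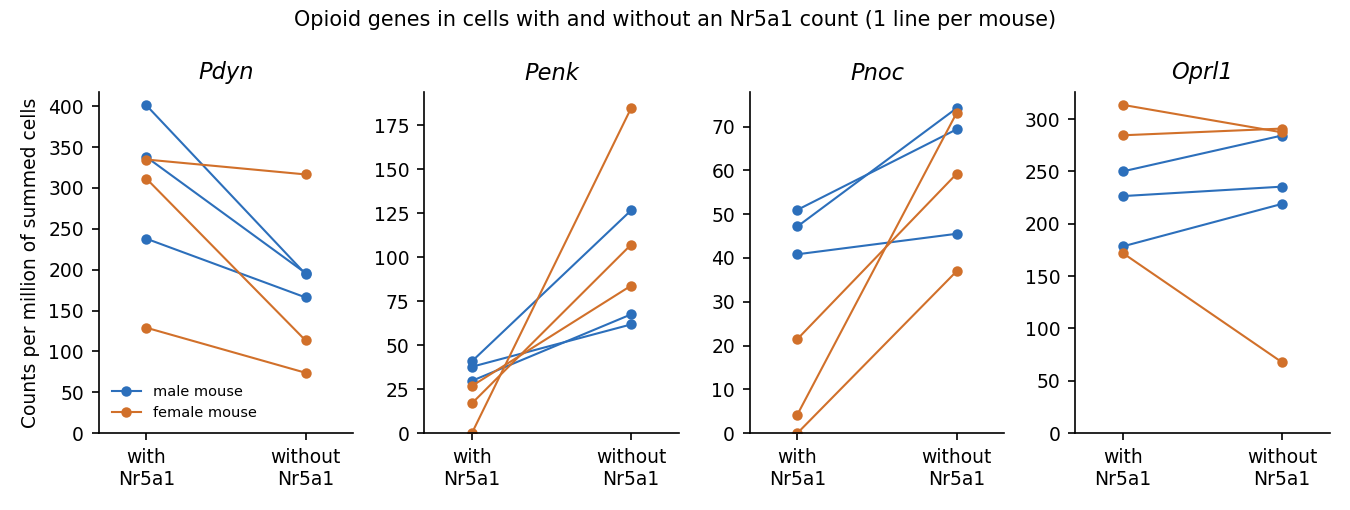
CPM (y axis) of Pdyn, Penk, Pnoc and Oprl1 summed over cells with (left) and without (right) an Nr5a1 count, with 1 line per mouse, males in blue and females in orange. All 6 lines go down to the right for Pdyn and up for Penk and Pnoc, and the Oprl1 lines go both ways.

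In this comparison 3 of the 5 tested members were called, 1 higher and 2 lower, where 1.3% of 4001 tested genes were called (0.9% higher and 0.4% lower). Pdyn and Penk were also called by DESeq2 (adjusted p = 0.0162 and 0.00263), and without cells that held Gad1 or Tbx3 (0.00406 and 0.000579 with edgeR). With cells thinned to 1986 counts, Pdyn was at 0.66 and the call was lost (adjusted p = 0.712), and Penk no longer passed the filter. Without mouse as a block neither was called (adjusted p = 1.00 and 0.234, with fold changes of 0.80 and −1.77).

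The other members gave no firm difference by Nr5a1. Pomc, the other gene called, was at −1.83 (SE 0.27, adjusted p = 3.60e-06). Pomc had 306, 18.9 and 7.43 CPM in Nr5a1-detected cells of males and 17.0, 43.0 and 773 CPM in those of females, against 228, 1539 and 641 CPM in undetected cells of males and 24.4, 24.6 and 1428 CPM in those of females. It was lower in 4 mice and higher in male 1 and female 2, and was not called by edgeR with robust variance estimation (adjusted p = 0.513) or by DESeq2 (0.887). Of the 17 cells high in Pomc, 2 had an Nr5a1 count, and these set the values of male 1 and female 3. Pnoc was at −0.90 (SE 0.29), lower as counted in 6 of 6 mice without passing the threshold (adjusted p = 0.113). In female 2 that was a count of 0 in 23254 counts. There the limit of 3 counts for a count of 0 lay above the undetected level, so no direction is shown. Oprl1 was at −0.07 (SE 0.11, adjusted p = 0.897), higher in 2 mice and lower in 4. Oprk1 was found in 11.5% and 9.89% of detected and undetected cells, or 3.26% and 3.85% after thinning, and did not pass the filter. Oprd1 was found in 7 of 156 and 4 of 374 cells.

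In the split by Tac1, Pnoc and Pomc were the called precursors. Pnoc was lower in Tac1-detected cells by −1.06 on the log2 scale (SE 0.26, adjusted p = 0.0216), as counted in 6 of 6 mice. In female 2 that was a count of 0 in 48255 counts. There the limit of 3 counts for a count of 0 lay above the undetected level, so no direction is shown. Pnoc reached the level of the filter on low counts in every undetected sum but not in most detected sums. Pnoc was thus tested through the side where it was higher. The levels were 45.4, 22.4 and 38.0 CPM in Tac1-detected cells of males and 28.3, 0 and 24.6 CPM in those of females, against 77.3, 92.9 and 47.4 CPM in undetected cells of males and 43.6, 43.7 and 74.9 CPM in those of females. The call was lost without male 1 (adjusted p = 0.0624), male 2 (0.268) or female 3 (0.154), by DESeq2 (0.513), without cells of 30 or more Pomc counts (0.0621), and without cells that held Gad1 or Tbx3, where Pnoc was tested with no filter on low counts (0.856). Pomc was at −2.07 (SE 0.16, adjusted p = 4.69e-15), lower in 4 of 6 mice and higher in females 1 and 2, and that call was lost with robust variance estimation (0.188) and by DESeq2 (0.998). These 2 were the calls among 5 tested members, where 0.911% of 4392 genes were called (0.478% higher and 0.433% lower).

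Prodynorphin and proenkephalin levels were not called in the Tac1 split. Pdyn was at −0.24 (SE 0.14, adjusted p = 0.649) and Penk at 0.42 (SE 0.23, adjusted p = 0.6246). Cells with much Penk were nonetheless often Tac1 cells. Of the 17 cells with 5 or more Penk counts, 12 had Tac1 (70.6%, interval 44.0 to 89.7%), against 19 of 62 cells with 1 to 4 counts (30.6%) and 162 of 451 cells with none (35.9%). Tac1 was not alone in this, since Rprm was also in 12 of the 17, against 22 of 62 (35.5%) and 160 of 451 (35.5%). The cells with 5 or more were also the deepest, with a median of 9099, 6644 and 5710 counts per cell in these groups, and the part of depth was not tested. Of the same 17 cells, 16 had Slc17a6 and 2 had Nr5a1. Of the GABAergic genes, Gad1 was in 3 of them (17.6%, against 5.99% of cells with no Penk), Gad2 in 2 and Slc32a1, the vesicular GABA transporter, in none. Oprl1 was at 0.17 (SE 0.11, adjusted p = 0.707) in the Tac1 split.

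Gad1 cells, a minority, held more Pnoc counts in the mice that could be tested. The split could be tested in males 1 and 3 and female 3, and Pnoc was higher in Gad1-detected cells by 2.37 (SE 0.39, adjusted p = 9.09e-07) in 3 of 3 mice. Pnoc reached the level of the filter on low counts in every detected sum but not in every undetected sum. It had 420 and 122 CPM in the Gad1-detected cells of the males and 77.5 CPM in those of the female, against 33.3 and 39.5 CPM in undetected cells of the males and 41.9 CPM in those of the female. These values rest on 6 cells with both genes, 1 of them the cell of male 1 with 20 counts. By cells as counted, Pnoc was in 33.3% and 40% of Gad1-detected cells of males 1 and 3, against 19.0% and 19.5% of undetected cells. In female 3 the share went the other way, with 1 of 11 Gad1-detected cells (9.09%) against 11 of 75 undetected cells (14.7%). Without male 1 the fold change was 1.19 with no call (adjusted p = 0.982), and DESeq2 gave 2.22 (adjusted p = 0.0538).

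Pomc was called in the Gad1 split as well, at 2.76 (SE 0.16, adjusted p = 4.59e-62), but the mice did not go together. Gad1-detected cells had 2085 and 3977 CPM in the males and 1107 CPM in the female, against 94.3 and 222 CPM in undetected cells of the males and 1242 CPM in those of the female. The call was lost with robust variance estimation (adjusted p = 0.904) and by DESeq2 (1.00). Pnoc and Pomc were 2 of 5 tested members, where 0.915% of 4588 genes were called (0.371% higher and 0.545% lower). Pdyn was at −0.82 (SE 0.32, adjusted p = 0.370), and Penk at 0.82 (SE 0.41, adjusted p = 0.607) took the opposite sign by DESeq2 (−1.12) and without female 3 (−2.98).

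Tbx3 cells held most of the proopiomelanocortin. Of the 20 Tbx3 cells, 15 had Pomc (75%, against 10.6% of the 510 others), and they held 1392 of the 1762 Pomc counts (79.0%). Male 1 and female 3 had enough Tbx3 cells for a test, 7 each. Pomc had 3222 and 13440 CPM in the Tbx3-detected cells of male 1 and female 3, against 19.3 and 20.4 CPM in their undetected cells. Pomc passed the filter on low counts through the Tbx3-detected sums only, the side where it was higher. The log2 fold change was 8.50 (SE 0.24, adjusted p = 1.22e-13), also called by DESeq2 (8.38, adjusted p = 2.62e-17) but not without mouse as a block (8.66, adjusted p = 0.0719). Pomc was the 1 called of 5 tested members, where 0.538% of 5018 genes were called (0.339% higher and 0.199% lower). Penk had no count in these 14 cells, and Oprl1 was at −0.73 (SE 0.33, adjusted p = 0.493).

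The 17 cells high in Pomc held other genes than the cells with 1 or 2 Pomc counts, given here as a description. Tbx3 was found in 14 of 17 (82.4%) of them, 1 of 52 cells with 1 or 2 counts and 5 of 461 cells with none. Isl1, another transcription factor of arcuate neurons, was in 82.4%, 28.8% and 20.4% of these groups, and Cartpt, a peptide precursor, in 47.1%, 17.3% and 9.11%. The other arcuate markers did not all follow. Prlr was in 29.4%, 11.5% and 13.9% of the same groups, Npy in 1, 0 and 10 cells, and Agrp in 0, 1 and 3 cells. Kiss1 was not compared. The VMH markers went different ways, with Fezf1 in 0 of 17, 26 of 52 (50%) and 185 of 461 (40.1%), Nr5a1 in 11.8%, 36.5% and 29.3%, and Rprm in 35.3%, 28.8% and 37.5%. Among the high cells, Pdyn was in 10 (58.8%) and Oprl1 in 13 (76.5%). Oprk1, Oprd1 and Oprm1 had no count there, but 17 cells leave an exact upper limit of 19.5% for each, above the 10.4% of all cells that had Oprk1, so a difference was not detectable. Depth did not separate the high from the low cells, with a median of 7605 and 7772 counts.

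**Figure D5:**
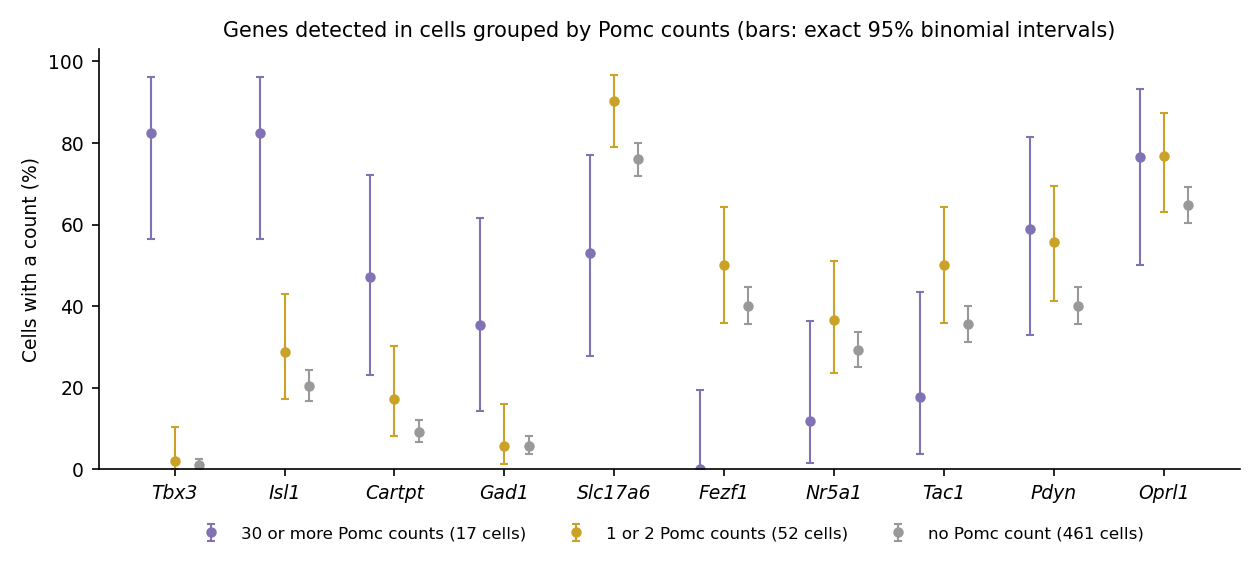
Share of cells (y axis, percent, with exact 95% binomial intervals) with a count of 10 genes, for cells with 30 or more, 1 or 2, or no Pomc counts. Tbx3 and Isl1 are in 82.4% of the high cells, while cells with 1 or 2 counts lie near the cells with none for Tbx3 and had Fezf1 in 50%.

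Several opioid genes were often found in the same cell. No precursor was detected in 206 cells, while 223 cells had 1, 79 had 2, 22 had 3 and none had all 4. The median depth was higher with each further precursor (4500, 6078, 8151 and 10475 counts), and its part was not tested. No receptor was detected in 164 cells, and 311 had 1, 54 had 2 and 1 had 3. A precursor and a receptor were detected together in 257 cells (48.5%), and 97 cells (18.3%) had none of the 8 genes.

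The dynorphin receptor was found more often in cells that held prodynorphin. Oprk1 was found in 34 of 224 cells with Pdyn (15.2%) and 21 of 306 without (6.86%), with a higher share in Pdyn cells in 5 of 6 mice. In the 63 cells with 5 or more Pdyn counts it was in 27.0% (interval 16.6 to 39.7%). After thinning, the shares were 4.88% and 2.82%, resting on 6 cells with both. Cells with Oprk1 were the deepest of the member groups, with a median of 8921 counts, against 5543 in cells without, and the part of depth was not tested.

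Nociceptin and its receptor were compared in the same way. Oprl1 was found in 57 of 75 cells with Pnoc (76.0%) and 295 of 455 without (64.8%), or 42.9% and 34.1% after thinning, and the share was higher in 4 of 6 mice. Pdyn cells had Oprl1 more often as counted (79.0%, against 57.2% of cells without Pdyn), and in 36.6% and 33.9% after thinning. In summed cells Oprl1 was at 0.02 in the Pdyn split (SE 0.10, adjusted p = 0.982) and 0.20 in the Penk split (SE 0.13, adjusted p = 0.851).

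Cells with Pdyn held less Pnoc than cells without. Pnoc was lower in Pdyn-detected cells by −1.09 (SE 0.26, adjusted p = 0.0137), as counted in 6 of 6 mice. In female 2 that was a count of 0 in 29331 counts. There the limit of 3 counts for a count of 0 lay above the undetected level, so no direction is shown. Pnoc reached the level of the filter on low counts in every undetected sum but not in every detected sum. Pnoc was thus tested through the side where it was higher. It had 35.8, 39.4 and 39.8 CPM in Pdyn-detected cells of males and 8.36, 0 and 41.1 CPM in those of females, against 101, 85.1 and 51.4 CPM in undetected cells of males and 69.3, 38.4 and 51.7 CPM in those of females. The call was lost without male 1 (adjusted p = 0.192) or female 1 (0.0659), and without cells that held Gad1 or Tbx3, tested with no filter (0.149), and DESeq2 gave no adjusted p. By cells, Pnoc was in 14.7% of cells with Pdyn and 13.7% of cells without as counted, and in 0.813% and 7.63% after thinning, where 1 cell had both. Penk was lower in 6 of 6 mice too, at −0.72 (SE 0.21) without passing the threshold (adjusted p = 0.0634), and was called with robust variance estimation (0.0406). Pomc was at 0.56 (SE 0.40, adjusted p = 0.686), and it was called in opposite directions without male 2 (−0.56, adjusted p = 0.0289) and without female 3 (1.66, adjusted p = 0.000912). Pnoc was the 1 called of 4 tested members, where 1.62% of 4199 genes were called (1% higher and 0.619% lower). Splitting by Penk called 0 of 2 tested members, where 0.243% of 2884 genes were called, with Pdyn at −0.07 (SE 0.16, adjusted p = 0.9999).

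Pnoc did not pass the filter in the Penk split, but the same cells seldom held both. It had 7.08, 38.7 and 25.5 CPM in Penk-detected cells of males and 0, 0 and 0 CPM in those of females, against 76.3, 69.5 and 48.5 CPM in undetected cells of males and 41.8, 36.0 and 58.0 CPM in those of females. Pnoc was thus lower as counted in the Penk-detected cells of 6 of 6 mice. The zeros of females 1 to 3 rest on sums of 58424, 19064 and 109209 counts. In females 1 and 2 the limit of 3 counts for a count of 0 lay above the undetected level, so their zeros show no direction. With no filter on low counts edgeR gave −2.07 for Pnoc (SE 0.42, adjusted p = 0.00107). The other member called without the filter was Pomc, at −1.01 (adjusted p = 4.75e-05), lower in 5 of 6 mice and higher in male 2, where 2 high cells held Penk. That fit called 2 of 7 tested members and 30 of 15219 genes (7 higher and 23 lower), and the median of all genes in it was −0.23. Penk and Pnoc were found together in 6 cells, which was 7.59% of cells with Penk, against 15.3% of cells without.

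The difference of these splits between the sexes was called for 1 value of a member, Pomc. In the Pdyn split, the Pomc fold change was larger in males than in females by 3.14 (SE 0.60, adjusted p = 0.00774), where 0.0476% of 4199 genes were called. Pdyn-detected cells had 293, 1972 and 410 Pomc CPM in males and 29.3, 0 and 575 CPM in females, against 197, 7.09 and 441 CPM in undetected cells of males and 9.90, 32.0 and 1674 CPM in those of females. All 4 cells high in Pomc held Pdyn in male 2, against 1 of 6 in female 3, and the call was lost with robust variance estimation (adjusted p = 0.999). In the Nr5a1, Tac1 and Penk splits the interaction was called for no member, where 0.075% (0.025% higher and 0.05% lower), 0.0228% and 0.104% of genes were called.

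Among other genes that make, break down or transmit opioid peptides, 2 calls were made over the 6 splits. Of the 8 genes of peptide processing (proteases and other enzymes that mature the precursors), 6 were tested in the Pdyn split and 1 was higher, Pam, which amidates peptide ends, at 0.54 (SE 0.15, adjusted p = 0.0491). That call was lost by DESeq2 (0.236) and in 5 of 6 fits without 1 mouse, and the list's median was 0.14 against −0.01 for all tested genes. In the Gad1 split 1 of 6 was higher, Ctsl, a cathepsin that can cut proenkephalin, at 0.92 (SE 0.25, adjusted p = 0.0304), lost by DESeq2 (1.00) and without any of the 3 mice. In the Nr5a1 split no gene of these lists was called, with 6 of 8 processing genes, 4 of 8 peptidases, 2 of 3 other opioid binding proteins, 15 of 24 genes of inhibitory G protein signalling and 4 of 14 effector channels and cyclases tested. The sex comparison and the Tac1, Tbx3 and Penk splits called none either.

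Across the 530 cells, each member was compared with 9549 genes found in at least 20 cells, as log2 of scaled counts centred within each mouse. Pomc was most like Tbx3 (Pearson r = 0.72), followed by Rnf128 (0.44) and Asb4 (0.42). Penk was most like Gal, the galanin precursor (r = 0.38, 11 cells with both), and Pdyn was most like A230065H16Rik (r = 0.30, 154 cells with both). Pnoc, Oprk1 and Oprl1 had no gene at r of 0.3 or more, with a highest value of 0.27, 0.22 and 0.28. Among the members themselves the strongest pair was Pdyn with Pnoc (r = −0.10). These are descriptions across cells that share plates and depth, and in sparse counts such weak values are no finding.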

How the data were processed

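Single cells of 6 mice were measured with BD Precise whole transcriptome libraries, 1 plate per mouse. The authors deposited raw counts, 1 table of genes by wells for each plate. The submitters' processing notes name HTSeq and mm10, with no version, and the sources used here name no aligner or strand and do not say if molecules or reads were counted. Wells with at least 500 genes and under 25% mitochondrial counts were kept. No doublet caller was run. Counts were summed over cells per mouse and tested in R 4.3.3 with edgeR 4.0.16 (quasi-likelihood, TMM scaling, genes kept by filterByExpr, adjusted p of 0.05 by Benjamini-Hochberg over all genes tested). DESeq2 1.42.0 was an alternative. Detection splits had mouse as a block, and the splitting gene was not tested. A log2 fold change has male on top of female, or detected on top of undetected. Shares were compared by two-sided exact permutation over 20 assignments, with exact (Clopper-Pearson) 95% intervals and a limit of 3 counts for a count of 0. Thinning to 1986 counts (the 10th percentile of kept cells) used expected shares, or for co-detection 1 draw (seed 7). Fits were also run on simulated counts, drawn with a common variance setting for all genes and no difference between mice but depth. Real counts here are sparse and uneven between cells, so that run does not bear on single calls. Python 3.11.15, scipy 1.17.1 and pandas 2.3.3 were used. Positions are from GENCODE vM21 and promoters from RefSeq.

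The members and gene lists were chosen with earlier results of these data known. All 8 members are named, with up to 4 called genes of each list per split, and up to 3 genes per member by correlation at r of 0.3 or more. Isl1, Cartpt, Fezf1, Rprm, Slc17a6, Slc32a1, Gad2 and the cut of 30 Pomc counts were chosen after values were seen. Alternatives were other scalings, tools, filters, cell and detection limits, blocks and leaving out each mouse. Robust variance estimation, leaving out cells with 30 or more Pomc counts, and leaving out Gad1 and Tbx3 cells without a filter were added after seeing the data.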

Additional observations from a re-analysis of the deposited data

Results flagged for a closer look

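In cells without an Nr5a1 count, Oprl1 was lowest in female 2 at 67.7 CPM, far from the other 5 mice. In cells without a Tac1 count, Penk was highest in the same mouse, at 197 CPM. These 2 gaps were the ones past Dixon's 95% limit among 26 sets of values over mice, and chance flags about 1 in 20 such sets. Female 2 was the shallowest library, with 185654 counts, and the part of depth was not tested. The third is a difference between the sexes, the Pomc change with Pdyn detection, larger in males by 3.14 on the log2 scale (SE 0.60, adjusted p = 0.00774 by edgeR, and 0.999 with robust variance estimation). Pdyn was in all 4 cells high in Pomc of male 2, against 1 of 6 in female 3.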

How the results depend on the processing

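Of the values for single members, 245 kept their direction and side of the threshold under settings that left out no mouse, 22 lost a call, 5 gained one and 10 took the opposite sign. The 245 include shares compared between the sexes, which could not cross the threshold, since the smallest possible exact permutation p was 0.1. They also include differences of 0, as for Oprd1 and Oprm1 at 2 or more counts, which were counted as kept. Members called in the Nr5a1 split numbered 3, and 0 with thinned cells or no replicate block. The 2 of the Tac1 split became 0 with DESeq2, thinned cells, no replicate block, without Gad1 or Tbx3 cells or without cells high in Pomc, and 1 with robust variance estimation or without Gad1 or Tbx3 cells and no filter. The 2 of the Gad1 split became 0 with DESeq2, thinned cells or no replicate block, and 1 with robust variance estimation. The 1 of the Tbx3 split became 0 with no replicate block. The 1 of the Pdyn split became 0 with DESeq2, no replicate block or without Gad1 or Tbx3 cells, and 2 with no filter, robust variance estimation, at least 2 Pdyn counts or without cells high in Pomc. The 0 of the Penk split became 2 with no filter, and the 1 interaction became 0 with robust variance estimation. Opposite signs were given by Penk between the sexes in cells with at least 1000 genes (0.18), Oprl1 by Nr5a1 with thinned cells (0.47), no replicate block (0.050) or at least 2 Nr5a1 counts (0.056), Penk by Gad1 with DESeq2 (−1.12), Pomc by Pdyn with thinned cells (−1.02, adjusted p = 0.0342 by edgeR), and Pdyn by Penk with thinned cells (0.039) or no replicate block (0.043). The share differences of Pomc (−0.0671 points) and Oprk1 (−0.323 points) did so after thinning. The cause was not tested. Leaving out each mouse gave 2 to 3 called members by Nr5a1, 1 to 2 by Tac1, 1 to 2 by Gad1 and 0 to 3 by Pdyn, and 0 in the sex and Penk comparisons. The ranges that crossed 0 were, between the sexes, −0.048 to 0.84 for Pdyn, −0.68 to 0.17 for Penk, −0.31 to 4.56 for Pomc, −0.21 to 0.78 for Oprk1 and −0.29 to 0.30 for Oprl1. By Gad1 they were −2.98 to 1.57 for Penk and −0.13 to 0.025 for Oprl1, by Pdyn −0.56 to 1.66 for Pomc and −0.036 to 0.062 for Oprl1, and by Penk −0.20 to 0.21 for Pdyn. In shares they were −1.02 to 5.99 points for Pomc, −1.75 to 0.421 for Oprd1 and −0.766 to 0.321 for Oprm1. Pairing males and females by number (replicate block) called 0 members and 0 genes. Same-numbered mice correlated at −0.145, −0.0745 and 0.260, and the other pairs at −0.145 to 0.244. The labels name no pairing, and so few values cannot settle whether same-numbered mice share more than a number. Over all genes, calls were 52 by Nr5a1 against 10 with DESeq2, 1 thinned and 0 with no replicate block, 40 by Tac1 against 6, 6 and 0, 42 by Gad1 against 3, 0 and 1, 68 by Pdyn against 31, 6 and 1, 7 by Penk against 1, 0 and 0, and 27 by Tbx3 against 3 with DESeq2 and 0 with no replicate block. With no filter, calls were 20 between the sexes, 72 by Tac1, 62 by Tbx3 and 30 by Penk. The Tbx3 split gave no value with thinned cells, at least 2 counts or a mouse left out, since under 2 mice remained. Single counts limit Oprd1 and Oprm1, and female 2 limits every share.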
